A study of Mus musculus with 24 samples.

Results

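Kidneys in which the Nes-Cre transgene deletes Wt1 were compared with kidneys of the same Wt1 conditional genotype without Cre, on 6 arrays of 1 set. The mutants, Nes-Cre Wt1co/co, carried Tg(Nes-cre)1Kln and were homozygous for the Wt1 conditional allele, from which Cre removes the first exon. The controls, Wt1co/co, were homozygous for the same allele and had no Cre. Both groups were E18.5 embryos, with 3 biological replicates in each, taken here as separate embryos. Whole-kidney total RNA was hybridised to single-colour MouseRef-8 v2 bead arrays. The strain is labelled C57BL/6, and the study's methods give a mixed C57BL/6/129Ola background. A gene was included where its detection p, the deposited measure of signal over the negative control beads of an array, was under 0.01 on at least 3 of the 6 arrays. This left 9160 of 17951 genes (51%), and a gene is called detected on an array where its p there was under 0.01. The p did not follow the intensity for every gene. On each array 590 to 652 genes lay more than 5 SD above the background mean with a p of 0.01 or more, and 562 genes with such a signal on at least 3 arrays were left out by the filter. The series holds 24 arrays in 8 groups of 3 embryos, and of the other groups only the Nes-Cre and wild-type kidneys, also E18.5, without the conditional allele and on another set of 6 arrays, are used below. 2 properties of the design limit what the groups stand for. Nes-Cre acts in the kidney mesenchyme and the nephrons that come from it, not in the ureteric bud, and it is incomplete, so that some nephrons keep Wt1. The controls lack Cre, so that the transgene and the loss of Wt1 cannot be told apart in the 6 arrays alone. Wt1 itself was not analysed here.

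Wt1 encodes a zinc finger transcription factor of the nephron lineage. In the developing kidney, mesenchyme caps the tips of the branching ureteric bud and, on induction, undergoes a mesenchymal-to-epithelial transition (MET) into renal vesicles, which grow through comma- and S-shaped bodies into the nephron with its podocytes, its proximal and distal tubules and the loop of Henle. Wt1 is required in the mesenchyme before the MET and remains high in podocytes, while the collecting ducts and the urothelium of the renal pelvis come from the ureteric bud, where Wt1 is not expressed.

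1 of the 3 mutant arrays stood apart from the other 5. Its log2 intensities correlated with those of the others, across genes, at r = 0.852 to 0.890, against 0.963 to 0.990 among the other five. This array, replicate 1, was low in tubule RNA and high in RNA of muscle and urothelium. Of the 44 proximal tubule genes in the table, 36 to 38 were detected in each control and 35 and 33 in mutant replicates 2 and 3, but 9 in replicate 1. Cdh16, a cadherin of kidney tubule and collecting duct epithelium, was at a log2 intensity of 12.80, 12.78 and 12.62 in controls 1, 2 and 3 and at 5.93, 12.85 and 12.65 in mutants 1, 2 and 3, an order kept for all values below, where a level given from one set of values to another goes from the controls to the mutants. Of 46 striated muscle genes, 13 to 14 were detected in each control, 29 in mutant replicate 1 and 17 in each of the others. The smooth muscle myosin gene Myh11 was at 13.48, 6.81 and 7.77 in the mutants and at 6.98, 6.84 and 7.04 in the controls. The study's methods leave out 1 Nes-Cre Wt1co/co sample without naming it. Changes are therefore given with and without replicate 1, and the array is written of by its label although its tubule markers go against a whole kidney. A signal of another kind was seen in replicate 3, where liver genes were high, with Ahsg, which encodes fetuin A, at 6.96, 4.61 and 10.65 and Apoa1, an apolipoprotein, at 7.17, 5.86 and 10.78 in the mutants. The summed intensity of the 10 liver genes tested was 718 to 802 in the controls and 1950, 727 and 10078 in mutants 1, 2 and 3, while Alb, serum albumin, was detected on none of the 6 arrays. No liver gene passed the test with or without replicate 1, and at an unadjusted limma p under 0.05 there was 1 in each. Sex was mixed in both groups, since Xist was high in control 2 and in mutants 1 and 3, and none of the 4 sex-linked genes tested passed. Ddx3y, a gene of the Y chromosome that did not pass the detection filter, was at 8.70, 6.45 and 8.81 in the controls. In the mutants it was at 4.33, 8.57 and 5.02, so that control 2 lay between the others, and the reason was not tested. The background of the 6 arrays lay between 50.7 and 57.7 intensity units with an SD of 3.81 to 4.31, and 8655 to 9414 genes were detected on each.

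**Figure D1:**
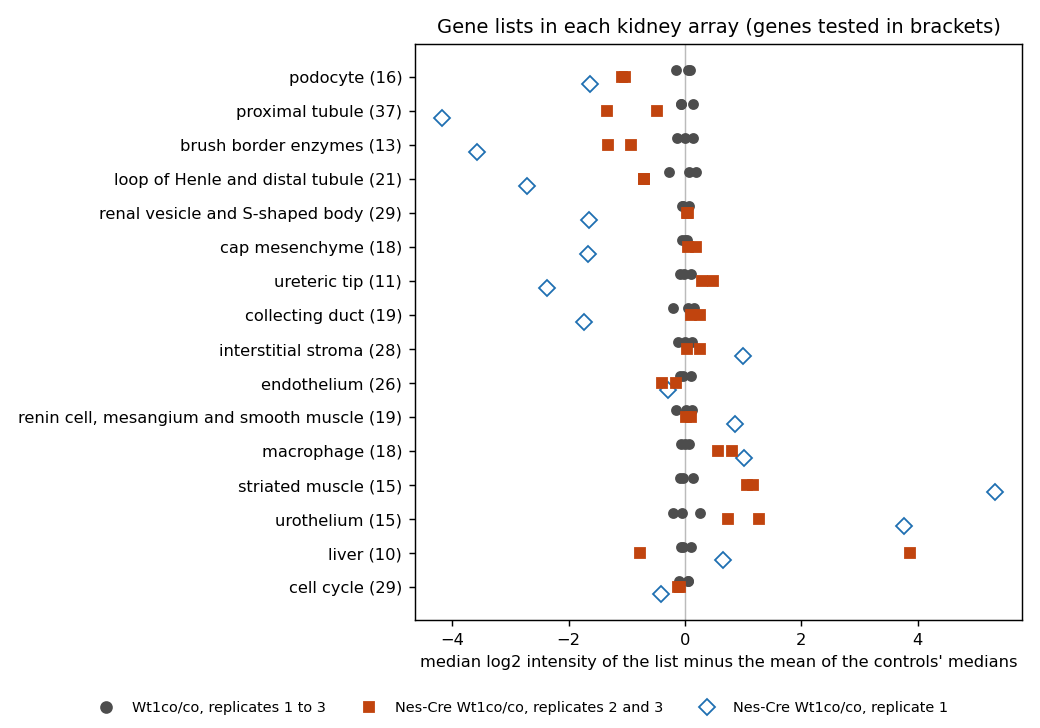
Median log2 intensity of 16 gene lists on each of the 6 arrays, as the difference from the mean of the 3 control medians. Mutant replicate 1 lies below the other mutants for the lists of tubule and collecting duct and far above them for striated muscle (a median level of 11.04 against 6.78 and 6.89) and urothelium (10.10 against 7.08 and 7.62).

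With all 3 mutants, few genes passed the test. Tested by limma with Benjamini-Hochberg adjustment over the 9160 genes, 4 were higher (0.0437%) and 4 lower (0.0437%) in the mutants at an adjusted p under 0.05, and 2077 had an unadjusted p under 0.05. The 3 mutants lay above the 3 controls for 1498 genes (16.4%) and below them for 1663 (18.2%). Without replicate 1, 807 genes were higher (8.81%) and 906 lower (9.89%), and 3335 had an unadjusted p under 0.05. Changes of more than 2-fold were found in 98 of the genes that rose and in 201 of those that fell. All 3 mutants lay beyond the controls for 539 of the 807 genes and 733 of the 906. With 3 mutants the standard error of the log2 change had a median of 0.165 over genes, and with 2 mutants 0.128. Replicates are biological by the study's methods, and with 2 mutants the error rests mostly on the spread of the controls and of all genes. Without replicate 1 the groups still differed in genes that mark muscle, urothelium and macrophages, given below, and the source of that signal was not tested. The split between higher and lower genes depended on the scaling. It was 1011 against 563 after scaling to the 75th percentile, which moved the median of all genes by 0.108 on the log2 scale, and 52 against 894 with the authors' normalized values, which moved it by -0.241. With each array of the authors' values centred it was 426 against 960. The background correction of neqc gave 487 higher and 399 lower genes, and no detection filter 674 and 733. Where leaving out a further array moved a list's count by more than 1.5 times, the count is given below for some lists but not for all. Counts without such a note were not all stable. Of the genes of the p53 response and apoptosis 3 fell, and 0 did without control 1. The list counts below stand beside the shares of all genes without replicate 1, 8.81% higher and 9.89% lower. Counts of list genes with all 3 mutants beyond the controls stand beside the 16.4% above and 18.2% below. In RNA of whole kidneys, fewer cells of a type and less RNA per cell cannot be told apart.

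**Figure D2:**
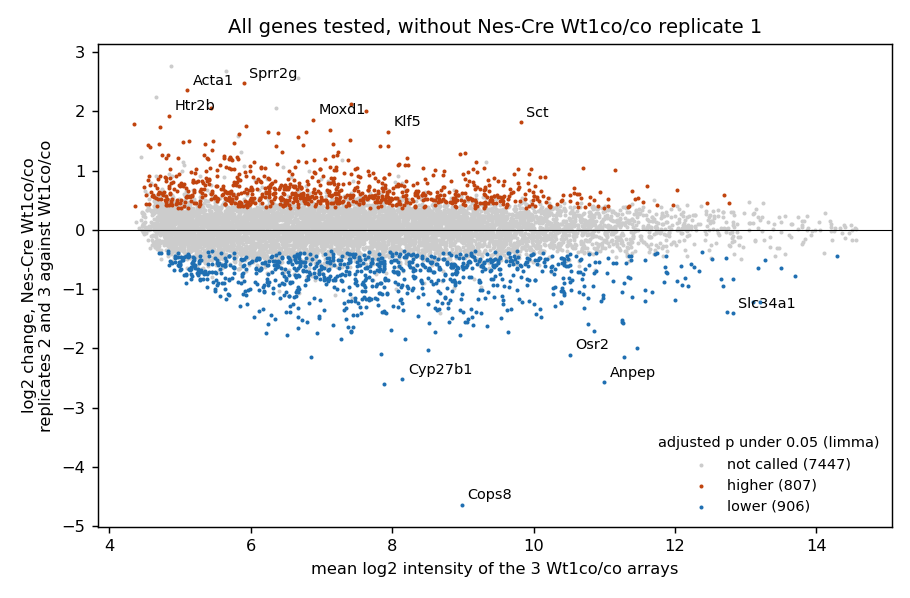
Mean control level (log2 intensity, horizontal axis) and log2 change of Nes-Cre Wt1co/co against Wt1co/co without replicate 1 (vertical axis) for the 9160 genes, 1 point each. The 807 genes that rose, the 906 that fell and the 7447 that did not pass are in separate colours, and decreases of over 2-fold outnumber increases of that size.

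8 genes passed both with and without replicate 1, and in all 8 the 3 mutants lay apart from the 3 controls. The largest increase was in Moxd1, which encodes a monooxygenase-like protein related to dopamine beta-hydroxylase. The controls were at 6.94, 7.01 and 6.69 and the mutants at 8.69, 8.89 and 8.58. The log2 change was 1.84 (SE 0.14, adjusted p = 0.0473) with replicate 1 and 1.86 (SE 0.15, adjusted p = 0.00275) without it. Actr3b, an actin-related protein of the Arp2/3 family, rose from 5.24, 5.35 and 5.45 to 6.90, 6.79 and 6.82, a log2 change of 1.49 with and 1.45 without replicate 1. Cyp27a1, the mitochondrial sterol 27-hydroxylase, rose by 1.20 and 1.20, and Gng2, a G protein gamma subunit, by 1.08 and 1.06. These 4 rises came from low to middle levels, and in each the mutants lay closer to one another than to any control. The deepest fall measured on both sides was in Nox4, the NADPH oxidase of renal tubule cells. In the controls it was at 7.52, 7.39 and 7.36, and in the mutants at 5.39, 5.97 and 5.47. Its log2 change was -1.82 (SE 0.18, adjusted p = 0.0499) with replicate 1 and -1.71 (SE 0.16, adjusted p = 0.00275) without it. Akp2, the older symbol of Alpl, tissue-nonspecific alkaline phosphatase of the proximal tubule brush border, went from 8.18, 8.09 and 7.97 to 6.74, 6.65 and 6.89, a change of -1.32 and -1.31. Both of the others were detected in every control and on no mutant array, so that they passed the detection filter through the controls alone. 1190020J12Rik, now Nccrp1, an F-box related gene, was at 6.48, 5.98 and 6.20 in the controls and at least 3.23-fold lower in the mutants, or 3.19-fold without replicate 1. Aqp7, a water and glycerol channel of the proximal tubule, was at 5.55, 5.47 and 5.46 and at least 2.02-fold lower, or 1.99-fold without replicate 1. The adjusted p of the 8 genes lay between 0.0473 and 0.0499 with replicate 1, and leaving out any of the other 5 arrays instead ended all 8 calls. Akp2 is the only one of them in a list described below, so that every other call named for a list was made without replicate 1, and none of those genes passed with it. By limma's p before adjustment, with replicate 1, 20 of 37 proximal tubule genes and 10 of 16 podocyte genes were lower at p under 0.05. Of 29 renal vesicle and S-shaped body genes, 9 were lower and 1 higher. Higher were 2 of 18 cap mesenchyme genes and 16 of 18 macrophage genes. Over all 9160 genes 2077 had such a p in either direction, a larger share than in the cap mesenchyme list.

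Podocyte genes were lower in the mutants. Of 16 podocyte genes tested, 8 fell and 0 rose without replicate 1, and their median log2 change was -0.55, or -0.69 with it, where the median of all genes was 0.02 and 0.00 and 9.89% of all genes fell. For 13 of the 16, all 3 mutants lay below all 3 controls, as they did for 18.2% of all genes. Ptpro is a receptor tyrosine phosphatase of podocyte foot processes. It lay at 6.86, 6.66 and 7.31 in the controls and at 4.72, 5.10 and 5.30 in the mutants. Its change was -1.75 (SE 0.19, adjusted p = 0.00327) without replicate 1 and -1.91 (SE 0.23, adjusted p = 0.0565) with it. It was detected in every control and in no mutant, so that it passed the detection filter through the controls alone. Podxl, podocalyxin, the sialylated protein of the podocyte surface, fell from 8.86, 8.74 and 8.95 to 7.42, 7.96 and 8.02, a change of -0.86 (SE 0.11, adjusted p = 0.00493) without replicate 1 and -1.05 with it. Among the collagen IV chains that podocytes lay down in the mature glomerular basement membrane, Col4a3 changed by -0.66 and Col4a4 by -0.88 without replicate 1, and by -0.75 and -1.05 with it. For both, the groups did not overlap. Tcf21, a transcription factor of podocytes and also of kidney mesenchyme and stroma, was at 11.34, 11.13 and 11.31 in the controls and 10.86, 11.71 and 11.59 in the mutants and did not pass, with a change of 0.39 (SE 0.12, adjusted p = 0.0562) without replicate 1 and 0.12 with it. With neqc, 3 podocyte genes fell instead of 8, and 5 did without control 1 or without mutant 3.

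Genes that mark renal vesicles and S-shaped bodies went in both directions. Of 29 tested, 7 fell and 1 rose without replicate 1, with a median of -0.27, or -0.54 with it. The deepest fall without replicate 1 was in Osr2, a zinc finger gene of the mesenchyme and early nephron. Its level was 10.40, 10.64 and 10.52 in the controls and 9.50, 8.23 and 8.59 in the mutants. Its change was -2.10 (SE 0.14, adjusted p = 0.00181) without replicate 1 and -1.74 (SE 0.32, adjusted p = 0.0703) with it, and in this gene replicate 1 was the highest of the mutants. Lhx1, a LIM homeobox gene needed in the renal vesicle, was at 8.31, 9.20 and 8.88 in the controls and 4.30, 7.72 and 7.40 in the mutants, a change of -1.23 (SE 0.25, adjusted p = 0.0168) without replicate 1 and -2.32 with it. For both genes the mutants lay below the controls on every array. Fgf8, a growth factor of the renal vesicle, went the other way in the mutants other than replicate 1. The controls were at 7.27, 7.16 and 7.10 and the mutants at 4.32, 8.02 and 8.07. Its change was 0.87 (SE 0.11, adjusted p = 0.00415) without replicate 1 and -0.37 (SE 1.00, adjusted p = 0.851) with it, so that its direction rests on that array. Pax8 and Wnt4, which mark the step from induced mesenchyme to vesicle, did not pass. Pax8 was at 5.86, 5.80 and 6.05 in the controls and 4.30, 5.84 and 5.94 in the mutants, and Wnt4 at 8.66, 8.49 and 8.67 in the controls and 8.29, 8.70 and 8.92 in the mutants. The 95% confidence interval of the change without replicate 1 was -0.30 to 0.26 for Pax8 and -0.08 to 0.49 for Wnt4, and the changes with it were -0.54 and 0.03. Of 25 Notch pathway genes, which include receptors, ligands and targets of the pathway that specifies proximal nephron fates, 1 fell and 0 rose. It was the target Hes5 (-0.39 without and -0.69 with replicate 1). The median of the Notch list was -0.07 without and -0.11 with replicate 1, and leaving out a further array gave 0 to 3 falls. With neqc, 1 gene of the renal vesicle list fell instead of 7, and without control 1 or mutant 3 it was 3 and 2. The call of Lhx1 was lost with neqc and without control 3 or mutant 3.

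Proximal tubule genes fell together. Of 37 tested, 28 fell and 0 rose without replicate 1, with a median log2 change of -0.90, and all 37 changes were negative. With replicate 1 the median was -1.84. The 3 mutants lay below the controls for 31 of them, against 18.2% of all genes. Slc34a1 encodes the sodium-phosphate cotransporter of the proximal tubule brush border. In the controls it was at 12.88, 12.77 and 12.81, and in the mutants at 4.29, 11.25 and 11.58. Its change was -1.40 (SE 0.13, adjusted p = 0.00275) without replicate 1 and -3.78 (SE 1.92, adjusted p = 0.295) with it, where replicate 1 alone was at background. Slc22a6, the organic anion transporter OAT1, was at 11.44, 11.22 and 11.16 in the controls and 4.26, 9.28 and 10.13 in the mutants, a change of -1.56 (SE 0.23, adjusted p = 0.00681) without replicate 1 and -3.38 with it. The same pattern of values held for Hnf4a, a nuclear receptor that drives proximal tubule genes. It lay at 9.26, 9.25 and 9.30 in the controls and at 5.13, 8.17 and 8.32 in the mutants. Its change was -1.02 (SE 0.11, adjusted p = 0.00317) without replicate 1 and -2.06 (SE 0.84, adjusted p = 0.219) with it. Ass1, the argininosuccinate synthase of the tubule's arginine synthesis, fell most in the list without replicate 1, from 11.79, 11.32 and 11.25 to 7.84, 9.17 and 9.75, by 2.00 on the log2 scale without replicate 1 (SE 0.22, adjusted p = 0.00327 from limma) and by 2.54 with it. In Hsd3b4, a hydroxysteroid dehydrogenase that was among the genes moved most by replicate 1, the change was -1.21 without and -3.80 with it. Lrp2, which encodes the endocytic receptor megalin, was low throughout, at 4.97, 5.43 and 5.24 in the controls and 4.76, 4.95 and 4.59 in the mutants, and did not pass, with a change of -0.44 (SE 0.17, adjusted p = 0.109) without replicate 1 and -0.44 with it. With neqc 10 of the 37 genes fell, and without mutant 2 17 did.

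The promoters of 3 of these genes are shown because they hold the motif GTTAAT, on either strand, which is 1 arm of the site bound by homeobox factors that act in the proximal tubule. Of the 28 proximal tubule genes that fell, 23 had a promoter in the RefSeq table, and 7 of these (30.4%) held the motif between 250 bases before and 50 after the start, against 393 of 7026 tested genes with a promoter (5.59%) and 2228 of 27025 genes of the table (8.24%), all counted over any promoter of the gene. Of all 32851 promoters of the table, 2332 (7.1%) held it. The share was 27.3% for brush border enzymes that fell (3 of 11), 28.6% for loop and distal genes (2 of 7) and 0 of 5 for podocyte genes. The sequences are from RefSeq (GRCm38.p6, 5′ to 3′, plus strand), and capitals mark GTTAAT or, where the motif is on the other strand, ATTAAC. In Slc34a1, chr13:55399398-55399697, the motifs begin 89 and 61 bases before the start. In Slc22a6, chr19:8617746-8618045, the motif begins 56 bases before it. In the second of 2 promoters of Hnf4a, chr2:163546905-163547204, both motifs are on the other strand, 81 and 74 bases before the start. The share among members of these lists that did not fall was not counted, and no binding was measured.
Slc34a1: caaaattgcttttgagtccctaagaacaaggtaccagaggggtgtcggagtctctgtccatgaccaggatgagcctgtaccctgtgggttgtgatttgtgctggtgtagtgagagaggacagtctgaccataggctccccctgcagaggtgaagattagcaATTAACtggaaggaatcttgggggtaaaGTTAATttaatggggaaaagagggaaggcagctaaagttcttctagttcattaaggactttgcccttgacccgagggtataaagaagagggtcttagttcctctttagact
Slc22a6: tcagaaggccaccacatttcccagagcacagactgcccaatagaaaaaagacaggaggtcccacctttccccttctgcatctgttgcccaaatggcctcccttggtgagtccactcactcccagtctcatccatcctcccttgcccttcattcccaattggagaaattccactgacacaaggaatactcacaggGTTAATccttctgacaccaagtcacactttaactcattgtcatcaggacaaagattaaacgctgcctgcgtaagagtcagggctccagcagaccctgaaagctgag
Hnf4a: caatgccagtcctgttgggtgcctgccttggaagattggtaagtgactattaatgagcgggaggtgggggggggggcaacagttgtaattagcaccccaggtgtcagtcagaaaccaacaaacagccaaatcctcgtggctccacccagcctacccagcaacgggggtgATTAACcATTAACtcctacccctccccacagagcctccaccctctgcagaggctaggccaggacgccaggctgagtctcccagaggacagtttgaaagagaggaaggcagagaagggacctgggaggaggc

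The enzymes and other proteins of the brush border, many of which split peptides at the tubule surface, fell with the transporters. Of 13 tested, 12 fell and 0 rose without replicate 1, with a median of -1.11, or -2.00 with it. The 3 mutants lay below the controls for 12 of the 13, against 18.2% of all genes. Anpep, aminopeptidase N, had the deepest fall of the list without replicate 1. Its level was 11.53, 11.06 and 10.41 in the controls and 7.00, 8.12 and 8.73 in the mutants. Its change was -2.57 (SE 0.32, adjusted p = 0.00415) without replicate 1 and -3.05 (SE 0.50, adjusted p = 0.0618) with it. Dpp4, dipeptidyl peptidase 4, fell from 11.36, 11.07 and 11.34 to 6.40, 10.22 and 10.21, by 1.04 without replicate 1, with a change of -2.31 with it. Mep1a, the meprin A alpha subunit, fell from 8.67, 8.39 and 8.05 to 4.42, 6.72 and 7.12, by 1.45 without replicate 1, with a change of -2.28 with it. Cyp27b1, the enzyme that makes active vitamin D in the proximal tubule, was at 8.98, 8.34 and 7.12 in the controls and 4.16, 5.08 and 6.17 in the mutants. The change was -2.52 (SE 0.52, adjusted p = 0.0184) without replicate 1 and -3.01 (SE 0.65, adjusted p = 0.0849) with it, and the controls themselves spread over nearly 2 log2 units. Cldn2, the claudin of the leaky proximal tubule junction, changed by -1.71 (SE 0.24, adjusted p = 0.00584) without and -3.35 with replicate 1, from 11.18, 10.55 and 10.85 to 4.22, 8.80 and 9.49. With neqc the falls of Mep1a and Cyp27b1 did not pass.

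Downstream of the proximal tubule, 12 of 21 genes of the loop of Henle and distal tubule fell and 0 rose without replicate 1, with a median of -0.68, or -1.16 with it. Umod, uromodulin of the thick ascending limb, was at 9.17, 8.80 and 9.39 in the controls and 4.21, 8.41 and 8.23 in the mutants. Its change was -0.80 (SE 0.18, adjusted p = 0.0225) without replicate 1 and -2.17 with it. Slc12a1, the sodium-potassium-chloride cotransporter of the same segment, changed by -0.98 (SE 0.15, adjusted p = 0.00681) without and -2.68 with replicate 1, from 10.53, 10.16 and 10.15 to 4.21, 9.36 and 9.23. Slc12a3, the thiazide-sensitive cotransporter of the distal convoluted tubule, fell from 8.45, 8.26 and 8.47 to 6.95, 7.67 and 7.76, with changes of -0.68 and -0.93. In these 3 genes every mutant lay below every control. The deepest change of the list without replicate 1 was in Defb1, a beta-defensin of the distal nephron. The controls were at 8.47, 6.65 and 8.52 and the mutants at 4.41, 5.29 and 5.28. Its change was -2.60 (SE 0.51, adjusted p = 0.0159) without replicate 1 and -2.89 (SE 0.55, adjusted p = 0.0736) with it, and control 2 was nearly 2 log2 units below the other controls. Irx3, an Iroquois homeobox gene of the intermediate nephron, fell from 9.18, 9.22 and 9.24 to 6.07, 8.08 and 8.02, by 1.17 without replicate 1, and its change with it was -1.83. With neqc 6 of the 21 fell, and Umod and Defb1 did not pass, while without control 1 the count was 7.

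**Figure D3:**
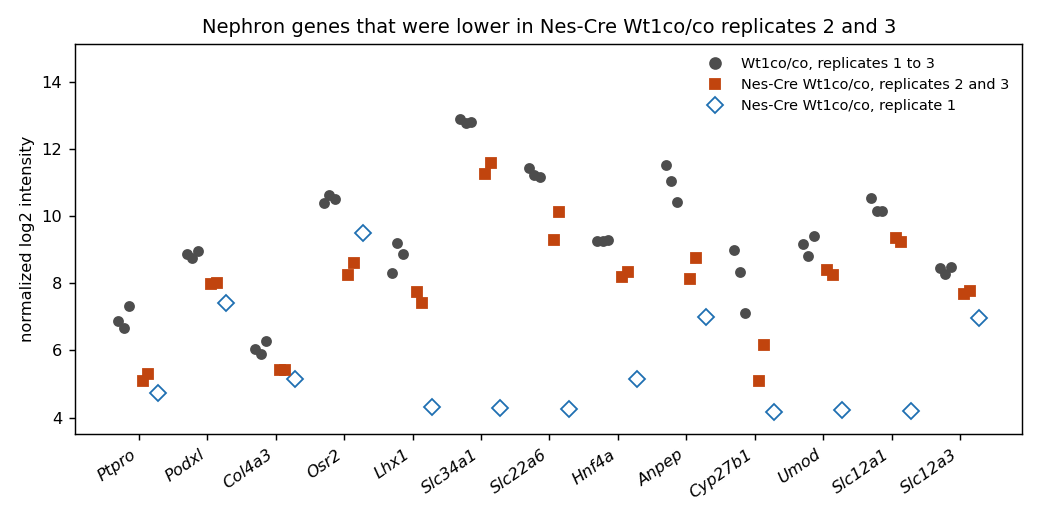
Log2 intensity of 13 genes of the podocyte, early nephron, proximal tubule and loop of Henle on the 3 Wt1co/co and 3 Nes-Cre Wt1co/co arrays, 1 point per array, with replicate 1 of the mutants marked. Every mutant lies below every control in each gene, and replicate 1 is the lowest mutant in all but Osr2 (9.50 against 8.23 and 8.59).

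Some genes of the cap mesenchyme, the progenitor population of the nephron, were higher in mutants 2 and 3. Of 18 tested, 6 rose and 0 fell without replicate 1, with a median of 0.23, while with replicate 1 the median was -0.30. Cited1, a transcriptional coregulator of the least committed progenitors, was at 7.10, 7.06 and 7.47 in the controls and 5.39, 7.83 and 7.66 in the mutants. Its change was 0.54 (SE 0.15, adjusted p = 0.0485) without replicate 1 and -0.25 (SE 0.65, adjusted p = 0.846) with it. Meox1, a homeobox gene of the same population, changed by 0.95 (SE 0.16, adjusted p = 0.0111) without replicate 1 and 0.30 (SE 0.54, adjusted p = 0.765) with it, at 8.00, 8.15 and 7.71 in the controls and 6.96, 9.06 and 8.75 in the mutants. In Eya1, a coactivator of Six2 and its relatives, the change was 0.53 without and -0.04 with replicate 1. For all 3 genes mutants 2 and 3 lay above every control and replicate 1 below. Six2, which keeps progenitors from differentiating, did not pass. In the controls it was at 7.39, 6.64 and 6.58, and in the mutants at 4.14, 6.91 and 6.75. Its change was -0.04 (SE 0.24, adjusted p = 0.919) without replicate 1, with a 95% confidence interval of -0.60 to 0.52, and -0.94 with it. With the authors' normalized values none of the 6 rises passed, with each array centred 4 did, and with neqc 2 did. A further array left out gave 1 rise without control 1 or mutant 2, 2 without mutant 3 and 3 without control 2, with a median down to 0.02. The call of Cited1 was lost in 4 of these 5 fits and that of Eya1 in 3.

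Among genes of the ureteric tip, the site of branching, 4 of 11 rose and 1 fell without replicate 1, with a median of 0.28, or -0.04 with it. Sox9, a transcription factor of the tip, was at 6.36, 6.29 and 6.13 in the controls and 4.59, 7.20 and 7.02 in the mutants. Its change was 0.85 (SE 0.12, adjusted p = 0.006) without replicate 1 and 0.01 (SE 0.69, adjusted p = 0.993) with it. Gfra1, the coreceptor through which GDNF signals to the tip, changed by 0.83 without and 0.35 with replicate 1, from 4.73, 5.10 and 4.55 to 4.19, 5.66 and 5.59. In Ros1, a receptor tyrosine kinase of ureteric epithelium, which went from 5.580, 5.544 and 5.404 to 4.33, 6.23 and 6.26, the changes were 0.74 and 0.10. The gene that fell was Lhx1, described above with the renal vesicle. The defining tip genes Ret and Wnt11 did not pass the detection filter. Ret was at 5.90, 6.25 and 6.36 in the controls and 4.56, 6.81 and 7.03 in the mutants. Wnt11 was at 4.86, 4.99 and 4.79 in the controls and 4.35, 4.53 and 4.52 in the mutants, lower on every mutant array. Wnt9b, the ureteric signal that induces the mesenchyme, was at 7.20, 7.26 and 7.38 in the controls and 4.27, 7.58 and 7.62 in the mutants and did not pass, with a change of 0.32 (SE 0.11, adjusted p = 0.0806) without replicate 1 and -0.79 with it. With the authors' normalized values none of the 11 rose and the median was -0.07, with these centred 3 rose, and without mutant 2 it was 2. The rise of Gfra1 did not pass with neqc.

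In the collecting duct list 3 of 19 genes rose and 1 fell without replicate 1, against 8.81% and 9.89% of all genes. The median of the list was 0.08, or -0.32 with replicate 1. With the authors' normalized values 0 rose and 2 fell, with a median of -0.30, or of -0.08 with each array centred, so that the direction of the median turned. Fxyd4, a regulator of the sodium pump in collecting duct, had the largest rise without replicate 1. It lay at 9.18, 9.11 and 9.27 in the controls and at 4.47, 10.51 and 10.14 in the mutants. Its change was 1.14 (SE 0.14, adjusted p = 0.00395) without replicate 1 and -0.81 (SE 1.58, adjusted p = 0.785) with it. Elf3, an epithelial ETS factor, changed by 0.82 without and 0.56 with replicate 1, from 6.84, 6.63 and 6.91 to 6.83, 7.74 and 7.49. The water channel Aqp2 was at 8.63, 8.22 and 8.50 in the controls and 4.38, 7.89 and 8.18 in the mutants, and Scnn1b, a subunit of the epithelial sodium channel, at 9.83, 9.65 and 9.56 in the controls and 5.67, 9.85 and 9.53 in the mutants. Neither passed. The changes were -0.41 without and -1.63 with replicate 1 for Aqp2, and 0.01 and -1.33 for Scnn1b. A member of the junction list, Cldn3, a tight junction claudin of collecting duct and distal nephron, had one of the largest rises. Its level was 7.93, 7.93 and 7.97 in the controls and 6.27, 9.54 and 9.18 in the mutants. Its change was 1.41 (SE 0.13, adjusted p = 0.00275) without replicate 1 and 0.38 (SE 0.84, adjusted p = 0.813) with it, and 5 of the 28 genes of that list rose and 2 fell, with a median of 0.07, or -0.06 with replicate 1. Without mutant 2 as well, 3 rose. Sct, which encodes the hormone secretin, changed by 1.81 (SE 0.17, adjusted p = 0.00275) without replicate 1 and 0.59 (SE 1.00, adjusted p = 0.752) with it, at 9.76, 10.08 and 9.62 in the controls and 7.95, 11.82 and 11.45 in the mutants. In each of these genes that rose, mutants 2 and 3 lay above all controls, and replicate 1 lay below them except in Elf3.

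**Figure D4:**
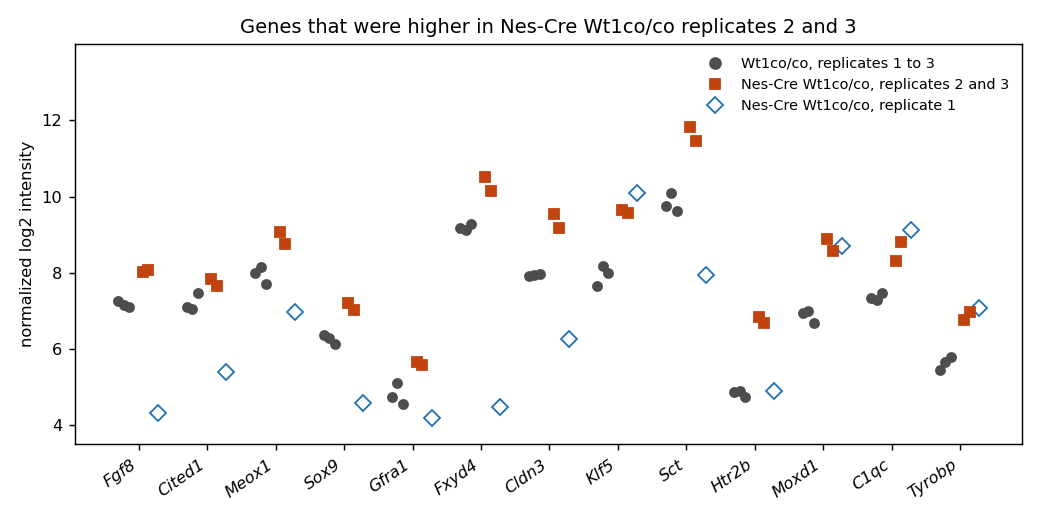
Log2 intensity of 13 genes that rose without replicate 1, on the 3 Wt1co/co and 3 Nes-Cre Wt1co/co arrays, 1 point per array, with replicate 1 of the mutants marked. In Moxd1, Klf5, C1qc and Tyrobp all 3 mutants lie above all controls, while in Fgf8, Cited1, Meox1, Sox9, Gfra1, Fxyd4, Cldn3 and Sct replicate 1 lies below them, and in Htr2b it is level with them (4.907 against 4.737 to 4.895).

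Of 28 genes of the interstitial stroma, 4 rose and 1 fell without replicate 1, against 8.81% and 9.89% of all genes. The median of the list was 0.25, or 0.50 with replicate 1. Lum, the matrix proteoglycan lumican, was at 7.77, 7.58 and 7.85 in the controls and 11.58, 8.43 and 8.95 in the mutants, a change of 0.95 (SE 0.17, adjusted p = 0.0126) without replicate 1 and 1.92 with it. Vim, the mesenchymal intermediate filament vimentin, changed by 0.90 (SE 0.14, adjusted p = 0.0087) without and 1.03 with replicate 1, from 10.10, 10.00 and 10.40 to 11.47, 10.99 and 11.13. Igf1, insulin-like growth factor 1, went from 6.03, 6.13 and 6.16 to 8.16, 7.03 and 6.91, a change of 0.86 without and 1.26 with replicate 1. In these 3 genes all mutants lay above all controls, with replicate 1 the highest. Foxd1, the transcription factor that defines the stromal progenitor, was at 5.12, 4.97 and 4.82 in the controls and 4.23, 5.08 and 5.42 in the mutants and did not pass, with a change of 0.28 (SE 0.15, adjusted p = 0.21) without replicate 1 and -0.06 with it. With the authors' normalized values the rises of Lum, Vim and Igf1 did not pass. Htr2b, a serotonin receptor, had one of the most even rises outside replicate 1. Its level was 4.885, 4.895 and 4.737 in the controls and 4.907, 6.830 and 6.694 in the mutants. Its change was 1.92 (SE 0.11, adjusted p = 0.00132) without replicate 1 and 1.30 (SE 0.51, adjusted p = 0.208) with it.

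The renin cell, mesangium and smooth muscle list moved in both directions, with 6 of 19 genes lower and 2 higher without replicate 1 and a median of -0.30, or 0.32 with it. Rgs5, a G protein regulator of pericytes and mesangium, was at 8.03, 8.23 and 7.53 in the controls and 7.76, 7.06 and 6.66 in the mutants, a change of -1.07 (SE 0.22, adjusted p = 0.0175) without and -0.77 with replicate 1. Akr1b7, an aldose reductase of renin cells, changed by -0.80 (SE 0.13, adjusted p = 0.00917) without replicate 1 and -1.98 with it, from 9.16, 8.85 and 8.99 to 4.68, 8.13 and 8.27. Ren1 itself, which encodes renin, did not pass. The controls were at 10.02, 9.62 and 9.26 and the mutants at 4.36, 9.15 and 9.51. Its change was -0.30 (SE 0.22, adjusted p = 0.359) without replicate 1 and -1.96 (SE 1.35, adjusted p = 0.423) with it. The 2 genes that rose, Des and Tpm2, are muscle genes and also in the striated muscle list, and Acta2, smooth muscle actin, did not pass and was high in replicate 1, at 12.01, 11.72 and 11.83 in the controls and 14.42, 11.64 and 11.92 in the mutants, with changes of -0.07 without and 0.81 with it. Without control 1 or mutant 3, 3 and 2 genes of this list fell. Of 26 endothelial genes 2 fell and 0 rose, smaller shares than the 9.89% and 8.81% of all genes. The median was -0.04, or -0.21 with replicate 1. In the basement membrane list 6 of 21 fell and 1 rose, with a median of -0.09, or -0.28 with replicate 1, and without mutant 2 or mutant 3 3 fell. Besides Col4a3 and Col4a4, the broadly made chains Col4a1 and Col4a2 fell without replicate 1. Col4a1 was at 12.79, 12.69 and 12.49 in the controls and 12.72, 11.84 and 11.82 in the mutants, a change of -0.83 (SE 0.12, adjusted p = 0.00696) without and -0.53 with replicate 1. Col4a2 was at 12.02, 11.73 and 11.86 in the controls and 11.62, 11.09 and 11.24 in the mutants, a change of -0.70 (SE 0.13, adjusted p = 0.013) without and -0.55 with replicate 1.

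Macrophage genes were higher in the mutants. Of 18 tested, 15 rose and 0 fell without replicate 1, with a median of 1.00, or 1.04 with it. For 16 the mutants lay above the controls on every array, against 16.4% of all genes. C1qc, a subunit of complement C1q made by macrophages, was at 7.34, 7.30 and 7.47 in the controls and 9.11, 8.31 and 8.80 in the mutants. Its change was 1.19 (SE 0.16, adjusted p = 0.0056) without replicate 1 and 1.37 (SE 0.22, adjusted p = 0.0611) with it. Tyrobp, a signalling adaptor of myeloid cells, had the largest rise of the list without replicate 1. In the controls it was at 5.45, 5.65 and 5.78, and in the mutants at 7.07, 6.75 and 6.97. Its change was 1.24 (SE 0.14, adjusted p = 0.00341) without replicate 1 and 1.31 (SE 0.14, adjusted p = 0.0565) with it. C1qa, another subunit, changed by 1.03 without and 1.14 with replicate 1, from 5.62, 5.65 and 5.91 to 7.09, 6.40 and 7.11. Emr1, the older symbol of Adgre1, which encodes the F4/80 antigen, went from 5.07, 5.11 and 4.81 to 5.96, 5.43 and 5.48, a change of 0.46 (SE 0.13, adjusted p = 0.0445) without replicate 1 and 0.63 with it. An exception was Csf1r, the receptor of macrophage colony-stimulating factor, at 5.98, 5.90 and 5.57 in the controls and 6.49, 5.85 and 5.90 in the mutants, a change of 0.06 (SE 0.15, adjusted p = 0.798) without replicate 1, with a 95% confidence interval of -0.28 to 0.40, and of 0.26 with it. With neqc 7 of the 18 rose, with the authors' normalized values 3, with these centred 13, and without control 1 8.

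Genes of muscle and urothelium were also higher in the mutants without replicate 1. In the striated muscle list 12 of 15 genes tested rose and 1 fell, with a median of 0.90, against 1.95 with replicate 1. Their summed intensity was 4576 to 5403 in the controls, 71710 in mutant replicate 1 and 5312 and 5438 in replicates 2 and 3. The defining muscle genes Actc1, cardiac actin, and Myog, myogenin, did not pass the detection filter. Actc1 was at 5.20, 5.05 and 5.06 in the controls and 12.79, 6.04 and 6.26 in the mutants, and Myog at 4.49, 4.54 and 4.37 in the controls and 4.96, 4.68 and 4.56 in the mutants. Acta1, skeletal muscle actin, was at 4.70, 4.76 and 5.85 in the controls and 14.03, 7.39 and 7.52 in the mutants, a change of 2.35 (SE 0.32, adjusted p = 0.00562) without replicate 1 and 4.55 with it. Myl4, a myosin light chain of embryonic and atrial muscle, changed by 0.90 (SE 0.11, adjusted p = 0.00397) without and 2.96 with replicate 1, from 6.00, 5.94 and 5.86 to 13.01, 6.78 and 6.89. In Tnnc2, fast troponin C, the changes were 1.44 and 3.43, from 4.31, 4.42 and 4.92 to 11.98, 6.02 and 5.96. In these 3 genes mutants 2 and 3 lay above every control and more than 5 log2 units below replicate 1. With neqc 8 of the 15 muscle genes rose, with the authors' normalized values 6 and with these centred 11. The medians were 0.24, 0.41 and 0.62. The rise of Myl4 did not pass with the authors' normalized values. Of the 15 urothelial genes tested, 7 rose and 0 fell, with a median of 0.57, or 1.35 with replicate 1. Their summed intensity was 2252 to 2628 in the controls, 18348 in replicate 1 and 4771 and 4538 in replicates 2 and 3. The defining genes Upk1b, another uroplakin, and Krt5, a basal keratin, did not pass the detection filter. Upk1b was at 7.04, 6.39 and 6.66 in the controls and 10.89, 6.11 and 6.78 in the mutants, and Krt5 at 4.37, 4.25 and 4.18 in the controls and 8.79, 4.13 and 4.31 in the mutants, so that both were above the controls in replicate 1 and not in mutants 2 and 3. With neqc or the authors' normalized values 3 urothelial genes rose, and without control 2 or mutant 3 4 did. Upk3a, a uroplakin of the urothelial surface, was at 7.52, 7.23 and 6.95 in the controls and 10.98, 7.75 and 8.26 in the mutants, a change of 0.77 (SE 0.21, adjusted p = 0.0411) without and 1.76 with replicate 1. Klf5, a Krüppel-like factor of urothelium and collecting duct, was nearly as high in mutants 2 and 3 as in replicate 1. It lay at 7.66, 8.18 and 7.99 in the controls and at 10.10, 9.65 and 9.56 in the mutants. Its change was 1.66 (SE 0.16, adjusted p = 0.00275) without replicate 1 and 1.82 (SE 0.21, adjusted p = 0.0565) with it. Krt19, a keratin of simple epithelia and urothelium, changed by 1.18 without and 1.84 with replicate 1, from 6.93, 6.67 and 7.10 to 10.06, 8.01 and 8.15. Sprr2g, a cornified envelope gene, was higher in mutants 2 and 3 and not in replicate 1, at 5.96, 6.14 and 5.61 in the controls and 5.01, 8.79 and 7.95 in the mutants, a change of 2.47 (SE 0.25, adjusted p = 0.00311) without and 1.35 with replicate 1. With neqc Upk3a and Sprr2g did not pass. The muscle and urothelium in each sample were not measured in another way, and their part in the other changes was not tested.

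Genes of energy metabolism, on which the proximal tubule depends for transport, included falls and no rises. Of 28 genes of fatty acid oxidation and the peroxisome, 8 fell without replicate 1, with a median of -0.25, or -0.23 with it, and without control 1, mutant 2 or mutant 3 the count was 4, 4 and 5. Ppargc1a, the coactivator PGC-1alpha of mitochondrial biogenesis, was at 7.57, 7.49 and 7.47 in the controls and 4.33, 6.34 and 5.79 in the mutants, a change of -1.44 (SE 0.17, adjusted p = 0.00356) without and -2.02 (SE 0.49, adjusted p = 0.108) with replicate 1. Acadm, the medium-chain acyl-CoA dehydrogenase, was lower in all 3 mutants than in any control. Its level was 12.24, 12.11 and 12.22 in the controls and 10.83, 11.11 and 11.39 in the mutants. Its change was -0.94 (SE 0.12, adjusted p = 0.00502) without replicate 1 and -1.08 (SE 0.16, adjusted p = 0.06) with it. In the respiratory chain 8 of 43 genes fell, with a median of -0.21, or -0.18 with replicate 1. Without mutant 2 none passed, and without control 1, control 2 or mutant 3 it was 1 in each. Cox5a, a cytochrome c oxidase subunit, changed by -0.48 (SE 0.11, adjusted p = 0.0261) without and -0.57 with replicate 1, from 12.63, 12.45 and 12.50 to 11.79, 12.00 and 12.09. The glutathione and redox list was split, with 6 of 30 genes higher and 8 lower and a median of -0.01, or -0.05 with replicate 1. Without control 1, mutant 2 or mutant 3, 1 gene of it was higher, without control 2 3, and without mutant 2 4 were lower. Sod3, extracellular superoxide dismutase, was at 8.17, 7.25 and 8.10 in the controls and 5.30, 5.34 and 6.15 in the mutants, a change of -2.10 (SE 0.32, adjusted p = 0.00765) without and -2.24 with replicate 1. Gpx3, the plasma glutathione peroxidase made in the proximal tubule, changed by -0.94 and -1.90, from 12.96, 12.49 and 12.60 to 8.85, 11.58 and 11.91. With neqc neither of these passed. Ndrg1, a stress- and hypoxia-regulated gene, changed by -1.22 (SE 0.16, adjusted p = 0.00491) without replicate 1 and -1.46 with it, but in its list of hypoxia and glycolysis 1 of 23 genes rose and 1 fell, with medians of 0.00 without and 0.17 with replicate 1.

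The calls of some other lists without replicate 1 were as follows. Of 29 cell cycle genes 3 rose and 2 fell, with a median of 0.10, or -0.03 with replicate 1. Of 45 genes of ribosomal proteins 2 rose, of 18 Wnt target genes 3 rose and 2 fell, and of 24 genes of the p53 response and apoptosis 4 rose and 3 fell. Their medians were 0.11, 0.09 and -0.04 without replicate 1 and 0.05, 0.07 and -0.05 with it. With a further array left out, 0 to 3 cell cycle genes rose, 0 to 1 of the ribosomal proteins, 1 to 2 of the Wnt targets and 3 to 5 of the p53 list. Over all genes 8.81% rose and 9.89% fell. Of 16 imprinted growth genes 2 rose and 1 fell, with medians of 0.19 without and 0.10 with replicate 1. Igf2, the insulin-like growth factor of fetal tissue, was at 14.19, 14.13 and 14.03 in the controls and 14.30, 14.36 and 14.44 in the mutants and did not pass, with a change of 0.28 (SE 0.11, adjusted p = 0.11) without replicate 1 and 0.25 with it, although the 3 mutants lay above the 3 controls. The deepest fall of any gene without replicate 1 was in Cops8, a subunit of the COP9 signalosome. The controls were at 8.92, 8.44 and 9.58 and the mutants at 8.77, 4.36 and 4.33. It was detected in mutant replicate 1 and not in replicates 2 and 3, which places those at least 22.9-fold below the controls, and with replicate 1 it did not pass (adjusted p = 0.205), nor with neqc. Replicate 1 alone was far above the rest in some genes. Popdc2, a popeye domain gene of heart and muscle, was at 11.84, 4.44 and 4.68 in the mutants, and P2rx1, the purinergic receptor of smooth muscle, at 11.50, 4.73 and 4.57, with controls at 4.44, 4.53 and 4.55 and 4.80, 4.83 and 4.79.

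The transgene alone was compared in Nes-Cre and wild-type kidneys, 3 embryos each. The fit also held the Wt1co/co kidneys and the mutants other than replicate 1, and its error rests on the spread within all of these groups. Of the 9160 genes, 3 were higher and 1 lower in the Nes-Cre kidneys (0.0437%), and 999 had an unadjusted p under 0.05. Among these were Serpina6, the corticosteroid-binding globulin (1.06), Entpd4, a Golgi nucleotidase (0.98), and Atp6v1d, a subunit of the vacuolar proton pump (-0.71). Both Serpina6 and Atp6v1d also passed in the mutants without replicate 1, where Serpina6 changed by -1.40 (-2.58 with it), in the opposite direction, and Atp6v1d by -0.58 (-0.56). The background of this set, 152.5 to 181.5 intensity units, was higher, and 7458 to 8262 genes were detected.

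The Nes-Cre effect in Wt1co/co kidneys was then set against the Nes-Cre effect in wild type, as a difference of 2 differences that each lie within a set. This difference passed for 537 genes (5.86%), 203 higher and 334 lower, with replicate 1, and for 1798 (19.6%), 885 higher and 913 lower, without it. The difference shares the mutant and control arrays with the mutant comparison, so that the values are given side by side. All values of the difference below are without replicate 1 unless stated. Among proximal tubule genes the median effect of the transgene alone was 0.24 and the median difference -1.02, with 28 of 37 lower. In Slc34a1 the transgene alone gave 0.14 (adjusted p = 0.704), and the difference was -1.49 (adjusted p = 0.000517), or -3.87 with replicate 1 (adjusted p = 0.274). Podxl was at 9.04, 8.55 and 8.47 in wild type and 8.95, 8.73 and 8.95 in Nes-Cre kidneys, and the difference was -1.06 (adjusted p = 0.007), or -1.26 with replicate 1 (adjusted p = 0.0257). For Moxd1 the transgene alone gave -0.36 (adjusted p = 0.283) and the difference was 2.27 (adjusted p = 0.000104), or 2.26 with replicate 1 (adjusted p = 0.000253). Among macrophage genes the median effect of the transgene alone was 0.00 and 11 of 18 were higher in the difference. Some members of the lists differed from this. Emr1 and Ros1, which rose in the mutants, did not pass in the difference, which was 0.48 (adjusted p = 0.288) for Emr1 and 0.71 (adjusted p = 0.0604) for Ros1. Nor did Rgs5, which fell, at -0.77 (adjusted p = 0.114). In Aqp2 the transgene alone gave 0.72 (adjusted p = 0.149), which did not pass, and the difference was -1.14 (adjusted p = 0.00929), although the mutant change did not pass.

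**Figure D5:**
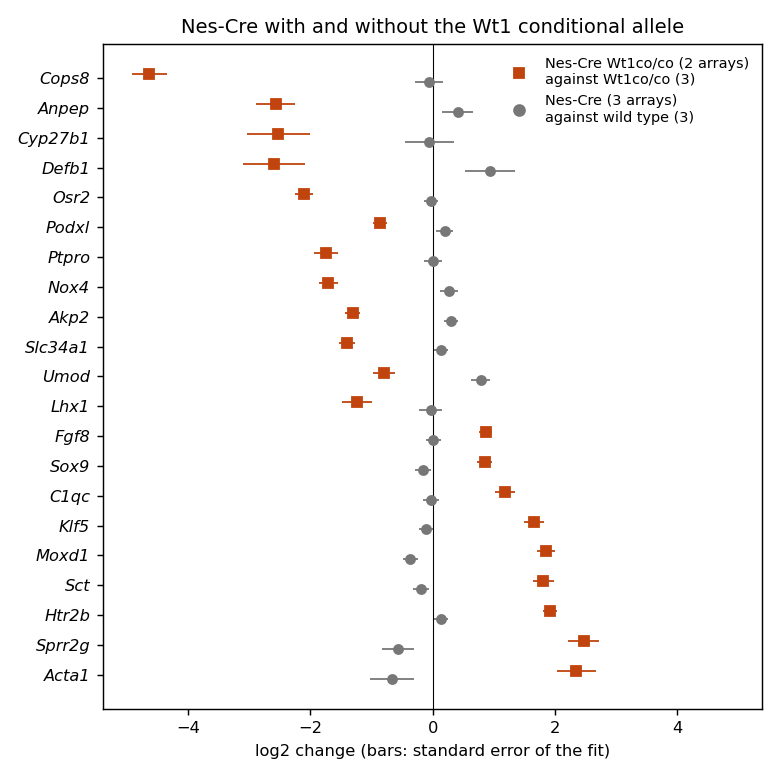
Log2 change with its standard error for 21 genes in Nes-Cre Wt1co/co against Wt1co/co without replicate 1, and in Nes-Cre against wild type. The changes of the transgene alone lie between -0.67 (Acta1) and 0.95 (Defb1), none of which passed, and those of the mutants between -4.64 (Cops8, which mutants 2 and 3 did not detect) and 2.47 (Sprr2g).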

How the data were processed

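Whole-kidney total RNA was labelled and hybridised by the authors to bead arrays. The intensities, as deposited, are linear bead signals, 1 value per gene symbol, without background subtraction or normalization. The detection p-values, as deposited, measure signal over negative control beads. The sources do not state how they were combined for a gene, and some bright genes have a high p. The authors' normalized values, made with GeneSpring, are a linear ratio to the control arrays of a set, and were used only as an alternative. In these, replicates 1 and 3 are exchanged relative to the intensities, whose numbers are followed here. For the software version, the test and the chip of each array nothing was stated in the sources. No other samples' columns were used.

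The analysis used R 4.3.3 with limma 3.58.1, and figures Python 3.11.15 with matplotlib 3.10.9. The background mean and SD of each array were read from intensities at detection p-values of 0.1 to 0.9. Normexp correction with an offset of 16, quantile normalization of the 6 arrays (12 for the transgene) and log2 followed. Genes were tested by limma with empirical Bayes variances and Benjamini-Hochberg adjustment over all 9160, and called at an adjusted p under 0.05. All adjusted p-values are from limma. For a gene that was detected on no array of a group and was near background there, the fold is a bound against the higher of its value and the lowest detected value on each array. The pipeline was tested on simulated data. The number of arrays limits the precision.

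Members and lists (35, written here from known markers) were chosen with earlier results of these data known. The genes named are those called with and without replicate 1, the defining members of each list and up to 4 further members, and the 6 each way that replicate 1 moved most. Further list members and the largest changes without replicate 1 were chosen after their values were seen. Some genes the rule names are not reported here. Symbols of 96.1% of the tested genes matched the RefSeq table. Alternatives were neqc, no background correction, an offset of 50, the 75th percentile, the authors' values, other detection filters, all 24 arrays, array weights, the replicate block, a fold of at least 1.5 and each array left out. The authors' values centred per array were added after the data were seen, as were settings for the transgene alone.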

Additional observations from a re-analysis of the deposited data

Results flagged for a closer look

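The Nes-Cre effect in Wt1co/co kidneys differed from the Nes-Cre effect in wild-type kidneys for 66 of the 84 named genes, 30 higher and 36 lower, tested by limma as a difference of 2 differences without replicate 1 (adjusted p under 0.05), and for 885 genes higher and 913 lower in all. The difference uses the same mutant and control arrays, and many of the 84 genes were named for their change on those arrays. The share of named genes that passed is therefore no separate test of that change. Over all 9160 genes 1798 (19.6%) passed. The values are differences of log2 changes, the effect in Wt1co/co minus that in wild type. Among podocyte genes it was -1.78 for Ptpro, -1.06 for Podxl, -0.94 for Col4a3 and -1.11 for Col4a4. For proximal tubule and brush border genes it was -1.49 for Slc34a1, -1.82 for Slc22a6, -1.003 for Hnf4a, -2.20 for Ass1, -2.53 for Cyp27b1, -2.99 for Anpep, -1.26 for Dpp4, -1.96 for Mep1a, -1.65 for Akp2, -1.32 for Aqp7, -1.99 for Cldn2 and -1.10 for Hsd3b4. In genes of the loop of Henle and distal tubule it was -1.60 for Umod, -1.36 for Slc12a1, -0.98 for Slc12a3, -3.61 for Defb1 and -0.98 for Irx3. Among early nephron genes it was -2.09 for Osr2, -1.22 for Lhx1 and 0.89 for Fgf8. For cap mesenchyme genes it was 0.79 for Cited1, 0.90 for Eya1 and 1.10 for Meox1. In genes of the ureteric tip, collecting duct and epithelial junction it was 0.56 for Wnt9b, 0.78 for Gfra1, 1.04 for Sox9, -1.14 for Aqp2, 0.91 for Fxyd4, 1.02 for Elf3 and 1.41 for Cldn3. Among genes of stroma, renin cells and matrix it was 1.21 for Igf1, 1.07 for Vim, 1.90 for Lum, -0.75 for Akr1b7, -0.96 for Col4a1 and -0.84 for Col4a2. For muscle genes it was 3.04 for Acta1, 1.51 for Myl4 and 1.27 for Tnnc2. In urothelial genes it was 1.15 for Upk3a, 1.78 for Klf5, 1.33 for Krt19 and 3.12 for Sprr2g. Among macrophage genes it was 1.43 for C1qa, 1.24 for C1qc and 1.05 for Tyrobp. For metabolic and redox genes it was -1.18 for Acadm, -1.68 for Ppargc1a, -2.48 for Sod3, -1.34 for Gpx3, -0.57 for Cox5a, -2.03 for Nox4 and 1.23 for Cyp27a1. The other genes named had differences of 2.27 for Moxd1, 1.54 for Actr3b, 1.65 for Gng2, -2.63 for 1190020J12Rik, -1.65 for Ndrg1, 1.77 for Htr2b, 1.99 for Sct, -4.60 for Cops8 and 0.40 for Igf2. Each difference also holds the change of the transgene alone, and can be larger or smaller than the mutant change. The transgene alone gave -0.92 for Lum, 0.79 for Umod and 0.97 for 1190020J12Rik, beside mutant changes of 0.95, -0.80 and -1.73 without replicate 1. In Irx3 it gave -0.21, beside -1.17. None of these transgene changes passed. The wild-type and Nes-Cre arrays are a set with a higher background, and the part of the set in these differences was not tested.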

How the results depend on the processing

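With all 3 mutants, the 4 higher and 4 lower genes became 12 and 18 with neqc, 0 and 0 after scaling to the 75th percentile, with the replicate block and with the authors' values centred per array, 0 and 13 with the authors' values as given, 1175 and 1368 in a fit of all 24 arrays, and 1155 and 1218 with array weights. Lower genes were 1 without background correction or with an offset of 50 and 15 without a detection filter, and higher genes 11 where all 6 arrays had to detect a gene. Leaving out 1 array gave 0 to 807 higher and 0 to 906 lower. Without replicate 1 of the mutants, the 807 higher and 906 lower genes became 487 and 399 with neqc and 428 and 598 with a fold of at least 1.5. Lower genes were 563 after 75th percentile scaling, and higher genes 52 with the authors' values, 426 with these centred, 1373 with all 24 arrays and 523 with the replicate block. Leaving out 1 more array gave 307 to 701 higher and 436 to 799 lower. Same-numbered samples correlated in their deviations at r = 0.018, 0.075 and 0.075, and differently numbered ones at -0.110 to 0.038. The deviations are from group means that include mutant replicate 1, so that these values cannot show whether the numbers pair the samples. Under the block Umod, Cited1, Emr1 and Cox5a were no longer called, and 62 of the 66 named calls were kept. Of these 66, 44 were kept with neqc, 46 with the authors' values, 61 with these centred and 55 to 63 with 1 more array left out. 3 genes or fewer were lost without background correction, with an offset of 50, with 75th percentile scaling, all 24 arrays or array weights, and 9 without a detection filter. The cause of these losses was not tested. With replicate 1 taken out, 4 changes turned sign, to 0.87 in Fgf8, 0.54 in Cited1, 0.53 in Eya1 and 1.14 in Fxyd4, while leaving out each of the other arrays in turn gave lowest values of -1.004, -0.69, -0.35 and -1.88.

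The difference of effects with replicate 1 became 748 higher and 857 lower with all 24 arrays and 67 to 885 and 118 to 913 with 1 array left out, and without replicate 1 459 to 924 and 537 to 963. For the transgene alone, higher genes were 30 with all 24 arrays, and lower genes 2 with neqc, 4 without background correction and 28 with all 24 arrays. With 1 array left out of the Wt1co/co, wild-type or Nes-Cre groups, 2 to 4 genes were higher and 1 to 2 lower. With the authors' values and all 3 mutants the median of all genes moved by -0.226, and with 75th percentile scaling by 0.105. Genes near background have no measured order below it, and 18 of the named genes lay there on mutant replicate 1.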
